A study of Solanum lycopersicum with 12 samples.

Results

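The weight effect early and late was compared in 372 genes of the tomato stem, those whose identifier is listed in both deposited tables, 1 for genes that differed at 6 h and 1 for genes that differed at 10 days. They are 372 of 6120 genes in either table, 32.5% of the 1146 genes of the 10 day table and 6.96% of the 5346 genes of the 6 h table. The plants were tomato of the variety Ailsa Craig, grown 1 to a pot in a greenhouse with 16 h of light and 8 h of dark at about 28 °C. The full treatment was a wooden clamp of 3 g hung for 48 h from the top of stems 4.5 to 5 cm tall. Control plants carried none. The groups were weighted stems collected 10 days after the clamp was taken off (DSM10D), control stems of that day (C10D), weighted stems collected 6 h after the clamp was put on (DSM6H) and their control stems (C6H), each with 3 libraries. The time of the 6 h collection follows the series' design text; the sample labels call it 6 hours post treatment. The libraries are called biological replicates, with the number of plants behind each not given in the sources used here. By the design text, DSM6H stems were collected with the clamp on for 6 h. DSM10D stems had carried it for 48 h and then stood 10 days without it. The compared stems therefore differ in age and in time under load as well as in treatment. Each weight effect below is read against controls of its own day.

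A stem that must carry extra weight meets a mechanical load, and plants are known to answer loads with slower lengthening, thicker stems and altered cell walls. Gibberellin promotes stem lengthening, ethylene and auxin shape growth under load, and wall enzymes set how far a cell can stretch. Calcium-permeable channels that open on membrane tension belong to the earliest known steps of touch sensing in plants. Early answers to touch often pass within hours, while changes in growth and wood can last.

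The difference between the times was taken on log2(FPKM + 1), where FPKM is the fragment count scaled by transcript length and by the fragments mapped in the library. The weight effect at 10 days is the mean of DSM10D minus the mean of C10D, the weight effect at 6 h is the mean of DSM6H minus the mean of C6H, and the contrast is the first minus the second. A positive contrast means a higher effect at 10 days than at 6 h. All were fitted in 1 limma model over the 10 day table, in which 1135 genes passed the filter on low values, and p-values were adjusted over those 1135 by Benjamini-Hochberg. All 372 shared genes passed that filter. A result with an adjusted p under 0.05 is said to be called.

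The authors kept genes in each table for differing at that time. Where the Q value in the authors' deposited table was legible, it was under 0.05 for 206 of 207 shared genes at 6 h and for 287 of 288 at 10 days. Calls of the weight effect at each time therefore describe that choice and support nothing. Of the shared genes 366 were called at 10 days, 188 higher and 178 lower in weighted stems, beside 98.1% of all 1135 genes tested (51.2% higher, 46.9% lower). At 6 h 325 were called, 151 higher and 174 lower in weighted stems, beside 31.4% of all genes tested (15.6% higher, 15.8% lower). When library totals over the table were equalised, the split was 188 higher and 60 lower at 10 days, and 159 higher and 98 lower at 6 h. That scaling moved the median effect of all tested genes by 0.24 at 10 days and by 0.21 at 6 h, because the FPKM sums over the table were 91329 to 92158 in DSM10D and 109028 to 118361 in C10D, and 63787 to 68454 in DSM6H and 71854 to 80764 in C6H. It moved the median contrast by 0.05. Within groups, libraries correlated over the shared genes at 0.980 to 0.998, lowest in C10D.

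The early direction held in 244 of the 372 shared genes and was opposite at 10 days in 128. In weighted stems 111 genes were higher at both times and 133 were lower at both, 78 were higher at 10 days and lower at 6 h, and 50 were lower at 10 days and higher at 6 h. The same sign was seen in 65.6% of the shared genes, beside 62.4% of the 763 genes tested that are in the 10 day table only. The contrast was called in 143 shared genes (86 positive, 57 negative), which is 38.4% of them, beside 49.1% of all genes tested (27.4% positive, 21.7% negative). A gene kept for a clear effect at both times must give a large contrast when the signs differ, so the count of called contrasts follows from the choice and the signs. The same holds for each single gene below. Groups said to be apart, and small adjusted p-values where the signs differ, describe such genes and add no support. At 10 days groups did not overlap in 97.7% of all genes tested. Groups did not overlap at either time in 341 of the 372 shared genes. This compares with 533 of all 1135 genes tested (47.0%), which include the 341, and with 192 of the 763 in the 10 day table only. That count too follows from keeping genes that differed at each time. Across the 372 genes the effects at 10 days and at 6 h correlated at Pearson r = 0.24 and Spearman rho = 0.18, as a description over genes that share libraries.

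By sign and contrast the shared genes fell into 4 classes. The 128 genes with opposite signs all had a called contrast and are termed reversed, and in 107 of them the effect was called at both times. Another 13 genes kept their sign with a called contrast and a smaller effect at 10 days and are termed faded, 5 higher and 8 lower in weighted stems. In 12 of the 13 the fold of mean FPKM was also nearer to 1 at 10 days; the exception, a major facilitator gene (Solyc06g074990.3, named for this reason), was at no more than 2.89 FPKM in any library and at 0.27 of the control mean at both times. A further 2 genes kept their sign with a called contrast and a larger effect at 10 days, both lower in weighted stems. In the remaining 229 genes, 106 higher and 123 lower at both times, the sign was kept and the contrast was not called. For 199 of these 229 the 95% interval of the contrast lay within -1 to 1, and for the other 30 the data do not bound the difference that closely. Median effects of the 106 higher genes were 0.48 at 10 days and 0.47 at 6 h, and those of the 123 lower genes were -0.52 at 10 days and -0.61 at 6 h. In mean FPKM the median fold of the higher genes was 1.43 at 10 days and 1.39 at 6 h.

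**Figure D1:**
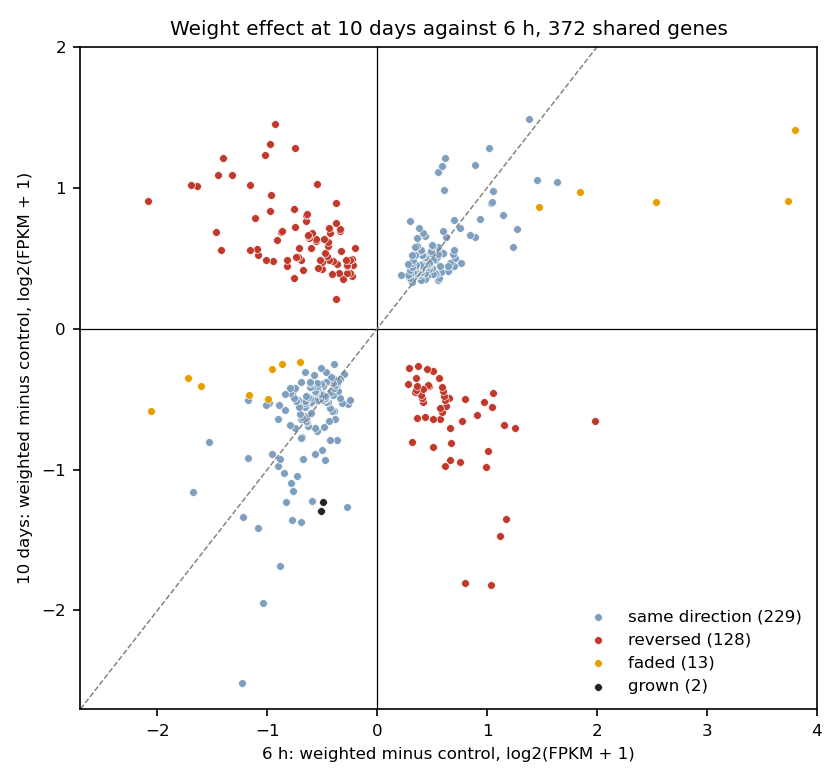
Weight effect at 10 days (vertical axis) against weight effect at 6 h (horizontal axis), both weighted minus control on log2(FPKM + 1), 1 point for each of the 372 shared genes; the dashed line marks equal effects. Points in the upper left and lower right are the 128 reversed genes, and the 13 faded genes have a smaller effect on the vertical than on the horizontal axis.

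By function, 258 shared genes could be put in 25 lists by their deposited name or domain. Most or all genes of secretion, ribosome making, photosynthesis, redox, metal handling and protein turnover kept their sign. Most genes of transport, carbon metabolism, heat shock, protein kinases, and clock and light did so too. Most or all genes of thiamine synthesis, ribosomal proteins, amino acid metabolism, wall, lignin, calcium, microtubules and gibberellin turned. So did most genes of ethylene, auxin and cytokinin, of lipids, of nucleotides, of proteases and defence, of transcription factors, and of P450 and dioxygenases. To turn means that the effects at 10 days and at 6 h had opposite signs and the contrast was called. Over all 372 shared genes 128 turned and 143 had a called contrast, and each list's counts stand beside these. Of the lignin genes that turned, all but caffeoyl-CoA O-methyltransferase were deposited under the name peroxidase, and these went both ways. The median over all 1135 genes tested was 0.35 at 10 days and 0.02 at 6 h. Over the 372 shared genes, from which the lists are drawn, it was 0.35 at 10 days and -0.36 at 6 h. The lists differ in size from 2 to 21 genes, and no list was tested as a whole. Since all but 6 shared genes were called at 10 days and all but 47 at 6 h, counts of called effects within a list describe the choice. Values from single genes of near-identical copies, such as light-harvesting proteins, pectinesterases, peroxidases, annexins and sugar transporters, may share reads.

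**Figure D2:**
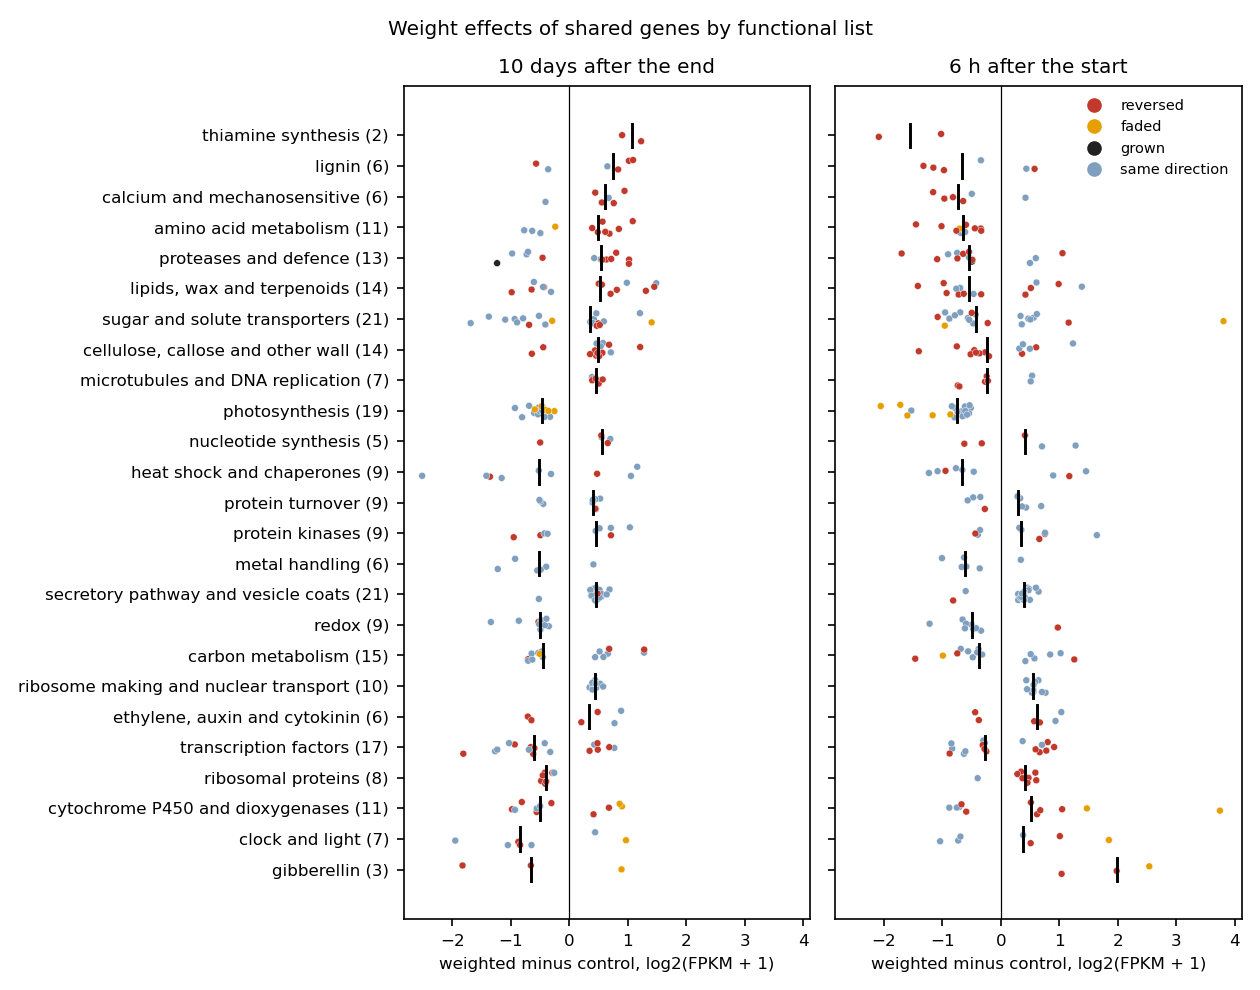
Weight effects of the listed shared genes at 10 days (left panel) and at 6 h (right panel), weighted minus control on log2(FPKM + 1), 1 point per gene, coloured by class, with the list's median as a bar and its number of genes in brackets. The 9 lists at the top have their median above 0 at 10 days and below 0 at 6 h, as do the shared genes as a whole; the secretory and ribosome-making medians lie to the right of 0 in both panels and every photosynthesis gene to the left of 0 in both.

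Genes of the secretory pathway were higher in weighted stems at both times. Among these are parts of vesicle coats: SEC23, SEC24 and SEC31 of the coat that leaves the endoplasmic reticulum, coatomer of the coat that returns to it, and clathrin at the plasma membrane and the trans-Golgi. Of 21 genes, 19 rose at both times, 1 was lower at both (the auxilin-related Solyc04g080040.3) and 1 turned. A SEC24-like gene, Solyc06g084210.3, had 45.6, 42.7 and 51.3 FPKM in weighted stems at 10 days, against 29.8, 23.7 and 32.2 FPKM in controls. It had 60.1, 61.4 and 56 FPKM in weighted stems at 6 h, against 37.1, 35.8 and 43.5 FPKM in controls, so the groups did not overlap at either time. The contrast was 0.09 ± 0.17 (SE; adjusted p = 0.67), with a 95% interval of -0.28 to 0.46. A clathrin heavy chain gene, Solyc05g052510.4, had effects of 0.46 at 10 days and 0.47 at 6 h. Of the list, SEC31 (Solyc01g088020.3) differed most between the times among those with no called contrast, at 0.28 ± 0.18 (SE; adjusted p = 0.2). The gene that turned encodes dynamin-related protein 1E (Solyc08g077360.3), of a family that pinches off membranes, and had 4.93, 5.13 and 4.86 FPKM in weighted stems at 10 days, against 3.38, 2.88 and 3.56 FPKM in controls. It had 1.48, 1.47 and 2.24 FPKM in weighted stems at 6 h, against 3.88, 3.34 and 4.12 FPKM in controls, with a contrast of 1.30 ± 0.17 (SE; adjusted p = 0.00032). SEC24 and clathrin were chosen for mention after their values were seen.

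Genes for making ribosomes and for nuclear transport were higher in weighted stems at both times, and most ribosomal proteins turned. All 10 genes of the list, among them the ribosome assembly factor BMS1, importins and exportin-T, rose at both times, with effects of 0.35 to 0.58 at 10 days and of 0.43 to 0.76 at 6 h. None had a called contrast in limma, and none had an unadjusted p under 0.05. The largest difference was in importin-4 (Solyc01g104070.3), which carries proteins into the nucleus, with 15.8, 14.5 and 14.8 FPKM in weighted stems at 10 days, against 11.8, 9.8 and 10.4 FPKM in controls. It had 48.1, 47.2 and 35.5 FPKM in weighted stems at 6 h, against 22.2, 24.3 and 29.1 FPKM in controls, and the contrast was -0.30 ± 0.19 (SE; adjusted p = 0.19), called only with array weights (adjusted p = 0.048) among 22 alternatives. Of 8 ribosomal protein genes, by contrast, 7 fell at 10 days and rose at 6 h in weighted stems. Ribosomal protein L37 (Solyc06g066660.4) had 217, 221 and 280.1 FPKM in weighted stems at 10 days, against 377, 289 and 335 FPKM in controls. It had 425, 449.5 and 436 FPKM in weighted stems at 6 h, against 275, 273 and 314 FPKM in controls, a contrast of -1.08 ± 0.17 (SE; adjusted p = 0.00074). The groups were apart at both times, low in weighted stems late and high in weighted stems early. The small subunit protein S15 (Solyc06g053820.4) gave a contrast of -1.01 ± 0.14 (SE; adjusted p = 0.0005) and L34e (Solyc06g069860.4) one of -0.88 ± 0.12 (SE; adjusted p = 0.00037), while L7a (Solyc06g064460.4), named after its values were seen, was lower at both times (-0.25 at 10 days, -0.40 at 6 h). With library totals equalised, 0 of the 8 were called lower at 10 days and 7 were still called higher at 6 h; the contrast remained called in 7, and 2 of the 8 were higher at both times. L7a was then at 0.04 at 10 days.

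Photosynthesis genes were lower in weighted stems at both times. All 19 genes of the list, which encode light-harvesting proteins, subunits of both photosystems and carriers of electrons between them, fell at both, by 0.25 to 0.93 at 10 days and by 0.52 to 2.05 at 6 h on the log2 scale. In whole stems, fewer green cells and less RNA per green cell cannot be told apart. With library totals equalised the effect at 10 days was negative in 18 of the 19 and called in 4, and with quantile normalization it was negative in 17 and called in 15. The contrast was called in 5 genes, all with a larger drop at 6 h. A chlorophyll a-b binding protein gene (Solyc12g006140.2), of the light-harvesting antenna, had 211, 243 and 225 FPKM in weighted stems at 10 days, against 329, 339 and 352 FPKM in controls. It had 40.8, 36.4 and 47.1 FPKM in weighted stems at 6 h, against 179.7, 211 and 139.8 FPKM in controls. Weighted stems were lowest at 6 h, at 0.23 of the control mean, against 0.67 at 10 days, and the contrast was 1.47 ± 0.20 (SE; adjusted p = 0.00035). A second antenna gene (Solyc12g011280.2) had 19, 22.3 and 21.8 FPKM in weighted stems at 10 days, against 29, 24.8 and 27.5 FPKM in controls. At 6 h it had 39.5, 38.4 and 49.5 FPKM in weighted stems, against 148, 169 and 113 FPKM in controls. The contrast of that gene was 1.37 ± 0.21 (SE; adjusted p = 0.00067). Of both genes for subunit VI of photosystem I, the contrast was 1.19 ± 0.18 (SE; adjusted p = 0.00073) for Solyc12g044280.2 and 0.70 ± 0.22 (SE; adjusted p = 0.022) for Solyc06g066640.3; the second lost its call without C6H replicate 1 (adjusted p = 0.051). Oxygen-evolving enhancer protein 1 (Solyc02g065400.3), of the water-splitting side of photosystem II, was the fifth, at 0.61 ± 0.15 (SE; adjusted p = 0.0068); it was named after its values were seen, and its effect at 10 days of -0.25 was 0.04 with library totals equalised. The summed FPKM of the 15 shared genes that match the green-tissue markers was 3674 to 4250 in DSM10D and 5040 to 5820.1 in C10D, and 3224 to 4003 in DSM6H and 5205 to 7127 in C6H.

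Thiamine synthesis gave the largest turn. Vitamin B1 is joined from a thiazole and a pyrimidine ring, and the shared genes hold the enzyme for each, both higher in weighted stems at 10 days and lower at 6 h. Thiamine thiazole synthase (Solyc07g064160.3) had 5226, 5490.3 and 8042 FPKM in weighted stems at 10 days, against 3772, 2670.0 and 3479 FPKM in controls. At 6 h it had 1562, 1353 and 1665 FPKM in weighted stems, against 6259.8, 7608 and 5689 FPKM in controls. Groups were apart at both times: weighted stems had 1.89 times the control mean at 10 days and 0.23 times at 6 h. The contrast was 2.99 ± 0.27 (SE; adjusted p = 4.6e-05), the largest positive one of the 372. Phosphomethylpyrimidine synthase (Solyc06g006080.3), for the other ring, had 155, 138 and 367 FPKM in weighted stems at 10 days, against 125, 49.4 and 95.6 FPKM in controls. It had 79.2, 54.3 and 80.7 FPKM in weighted stems at 6 h, against 122, 188 and 130.2 FPKM in controls. DSM10D replicate 3 was far above the other 2 libraries of its group; without it the effect at 10 days was 0.79, against 1.23 with it. The effect at 6 h alone was not called (adjusted p = 0.065). The contrast was 2.25 ± 0.55 (SE; adjusted p = 0.0069) and stayed called without each of the 12 libraries in turn.

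Cell wall genes mostly turned the same way. Of 14 genes for cellulose, callose, pectin and other wall carbohydrates, 8 were higher at 10 days and lower at 6 h, 2 were lower at 10 days and higher at 6 h, and 4 were higher at both. The contrast was called in 10 of the 14, beside 143 of the 372 shared genes. The largest was a pectinesterase (Solyc02g080200.4), an enzyme that removes methyl groups from pectin, with 3.24, 3.17 and 5.27 FPKM in weighted stems at 10 days, against 1.26, 0.69 and 1.32 FPKM in controls. At 6 h it had 13.4, 22.9 and 11.9 FPKM in weighted stems, against 40.4, 39.3 and 48.6 FPKM in controls. All 6 libraries of 10 days lay under the 6 of 6 h, and weighted stems were above their controls late and under them early, with a contrast of 2.62 ± 0.33 (SE; adjusted p = 0.00027). Both glucan endo-beta-glucosidases, which cut callose-type glucans, had positive contrasts, 1.11 ± 0.22 (SE; adjusted p = 0.0028) for Solyc08g083310.3 and 1.11 ± 0.18 (SE; adjusted p = 0.00091) for Solyc12g014420.2. The effect of Solyc08g083310.3 at 6 h was not called in limma (adjusted p = 0.061). The genes described next were chosen after their values were seen. Both callose synthases turned in that direction too, at 0.97 for Solyc01g073750.4 and 0.71 for Solyc01g006370.3. Cellulose synthases were split: Solyc09g072820.4 was higher at 10 days (0.49) and lower at 6 h (-0.52), while Solyc01g087210.3 and Solyc04g071650.4 were higher at both, by 0.47 and 0.71 at 10 days and by 0.31 and 0.38 at 6 h, the last with an adjusted p of 0.051. A second pectinesterase (Solyc06g051960.3) went against the first, with a contrast of -1.0. With library totals equalised 1 of the 8, an L-arabinokinase (Solyc07g016170.4), had a positive effect at 6 h too, at 0.02.

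Of 6 lignin genes, 3 were higher at 10 days and lower at 6 h, and 1 the reverse. Caffeoyl-CoA O-methyltransferase (Solyc04g063210.3), which methylates a lignin precursor, had 24.8, 25.1 and 41.5 FPKM in weighted stems at 10 days, against 18.6, 8.13 and 15.4 FPKM in controls. It had 15.8, 21.3 and 17.6 FPKM in weighted stems at 6 h, against 53.6, 41 and 46.5 FPKM in controls. The groups were apart at both times, on opposite sides, and the contrast was 2.42 ± 0.38 (SE; adjusted p = 0.00074). Class III peroxidases can couple lignin units in the wall, and 3 genes named peroxidase were shared. Of these Solyc02g084800.4 had 305, 350.0 and 388 FPKM in weighted stems at 10 days, against 162, 172 and 175 FPKM in controls. At 6 h the gene had 18.7, 27 and 13.8 FPKM in weighted stems, against 50.7, 47.8 and 34.8 FPKM in controls. Its contrast was 2.18 ± 0.29 (SE; adjusted p = 0.00032), and that of Solyc04g071900.4 was 1.81 ± 0.28 (SE; adjusted p = 0.00073). The last, Solyc02g087190.1, had a contrast of -1.14 ± 0.17 (SE; adjusted p = 0.00054) and was chosen for mention after its values were seen. Summed over the 5 shared genes that match markers of xylem and lignin, FPKM was 731 to 802 in DSM10D and 509 to 542 in C10D, and 788 to 915 in DSM6H and 734 to 798 in C6H. Most of these markers are the cellulose synthases already described with the wall genes (Solyc01g087210.3, Solyc04g071650.4 and Solyc09g072820.4). Of these 5 genes 4 were called higher and 1 lower in weighted stems at 10 days, and 1 higher and 3 lower at 6 h, so the sum at 6 h does not show what most of them did. The part of wood cells in these results was not tested.

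**Figure D3:**
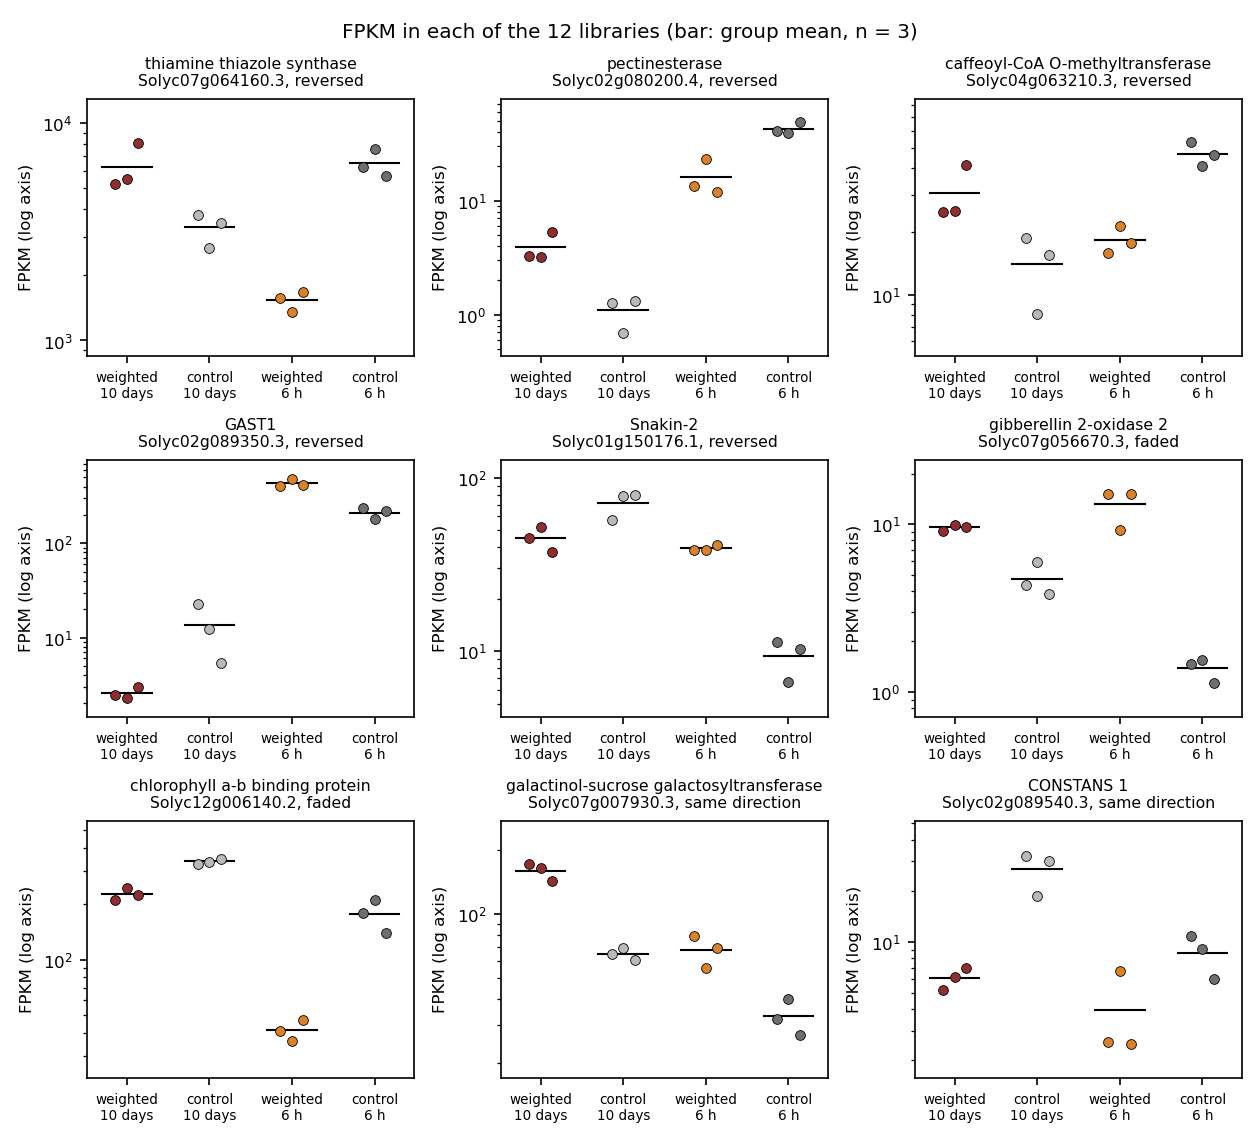
FPKM (log axis) of 9 shared genes in each library, in the order weighted and control at 10 days and weighted and control at 6 h; bars are means of 3 libraries. In thiamine thiazole synthase, the pectinesterase and caffeoyl-CoA O-methyltransferase the weighted libraries lie above their controls at 10 days and below them at 6 h, in GAST1 and Snakin-2 the order is turned round, and in the last 4 panels it is the same at both times.

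The 3 gibberellin genes were all higher in weighted stems at 6 h and all had negative contrasts. GAST1 (Solyc02g089350.3), first known in tomato as a transcript that gibberellin raises, had 2.43, 2.28 and 3.02 FPKM in weighted stems at 10 days, against 22.6, 12.4 and 5.32 FPKM in controls. At 6 h it had 402, 479 and 419.8 FPKM in weighted stems, against 236, 179.5 and 219 FPKM in controls. GAST1 was scarce in every 10 day library, lowest in weighted stems at 0.19 of the control mean, against 2.05 times the control mean at 6 h, and the contrast of -2.86 ± 0.49 (SE; adjusted p = 0.0012) was the most negative among reversed genes. Snakin-2 (Solyc01g150176.1), a small peptide of the same family known in potato for its action on microbes, had 44.9, 52.3 and 37.5 FPKM in weighted stems at 10 days, against 57, 77.9 and 79.1 FPKM in controls. It had 38.1, 38.6 and 41 FPKM in weighted stems at 6 h, against 11.3, 6.67 and 10.3 FPKM in controls. Late, every weighted library was below every control, and early every weighted library was above, with a contrast of -2.63 ± 0.26 (SE; adjusted p = 7e-05). Gibberellin 2-oxidase 2 (Solyc07g056670.3), of the enzymes that inactivate gibberellin, had 9.12, 9.89 and 9.62 FPKM in weighted stems at 10 days, against 4.36, 5.98 and 3.85 FPKM in controls. It had 15.1, 9.17 and 15.1 FPKM in weighted stems at 6 h, against 1.47, 1.55 and 1.13 FPKM in controls. It faded: weighted stems had 2.02 times the control mean at 10 days and 9.47 times at 6 h, and the contrast was -1.64 ± 0.26 (SE; adjusted p = 0.00074).

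Of 6 genes of ethylene, auxin and cytokinin, 2 kept their direction and 4 turned. A gene named cytokinin riboside phosphoribohydrolase (Solyc01g005680.4), of the enzymes that release active cytokinin, had 1.03, 1.46 and 1.12 FPKM in weighted stems at 10 days, against 3.51, 2.25 and 2.13 FPKM in controls. It had 16.4, 19.3 and 21.5 FPKM in weighted stems at 6 h, against 16.2, 10.1 and 9.42 FPKM in controls, with the groups apart at both times and a contrast of -1.37 ± 0.28 (SE; adjusted p = 0.003). LAX3 (Solyc11g013310.2), an auxin uptake carrier in Arabidopsis, had 3.72, 4 and 4.72 FPKM in weighted stems at 10 days, against 7.65, 5.71 and 7.87 FPKM in controls. It had 18, 23.9 and 21.8 FPKM in weighted stems at 6 h, against 13.9, 15.1 and 12.8 FPKM in controls, and the contrast was -1.21 ± 0.19 (SE; adjusted p = 0.00081). Both were low in weighted stems late and high in weighted stems early. The other 4 genes, chosen after their values were seen, were an ethylene receptor (Solyc09g089610.3), higher at both times (0.89 at 10 days, 1.03 at 6 h), an auxin-responsive protein (Solyc08g021820.3), likewise (0.78 at 10 days, 0.93 at 6 h), and 2 genes with a mean of 1.21 FPKM or less in every group. These 2, CTR1 (Solyc04g076480.3), a kinase that holds ethylene signalling down in Arabidopsis, and an indole-3-acetaldehyde oxidase (Solyc11g071610.2), had contrasts of 0.93 and 0.59, which the pseudocount shrinks at such levels.

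Among 7 genes of the clock and of light sensing, 3 were lower at both times, 2 were higher at both and 2 turned. CONSTANS 1 (Solyc02g089540.3), of the family that links day length to flowering, had 5.23, 6.18 and 6.97 FPKM in weighted stems at 10 days, against 32.3, 18.7 and 30.1 FPKM in controls. It had 2.56, 6.75 and 2.51 FPKM in weighted stems at 6 h, against 10.8, 9.12 and 6.07 FPKM in controls, where DSM6H replicate 2 lay within the range of the controls. The effects of -1.95 at 10 days and -1.04 at 6 h gave a contrast of -0.91 ± 0.44 (SE; adjusted p = 0.1), and no scaling turned either sign. An LHY-like gene (Solyc10g005080.3), of the morning loop of the clock and chosen after its values were seen, was lower by 1.05 at 10 days and by 0.73 at 6 h. A phytochrome kinase substrate gene (Solyc05g007480.1), of light-guided growth in Arabidopsis, turned, with 8, 8.16 and 6.34 FPKM in weighted stems at 10 days, against 16.2, 13 and 14.3 FPKM in controls. It had 8.54, 9.44 and 7.92 FPKM in weighted stems at 6 h, against 4.03, 3.85 and 3.48 FPKM in controls, a contrast of -1.88 ± 0.16 (SE; adjusted p = 4.6e-05). The blue light receptor gene cryptochrome 1b (Solyc12g057040.2) turned the same way, at -1.35 ± 0.21 (SE; adjusted p = 0.00078). A cold-regulated gene of the 27/28 type (Solyc04g078880.3), of regulators of the evening clock in Arabidopsis, was called faded, with effects of 0.97 at 10 days and 1.85 at 6 h. Its contrast of -0.87 ± 0.33 (SE; adjusted p = 0.047) lost the call in 11 of 22 alternatives, with adjusted p from 0.0037 to 0.12. The hour of the day of each collection is not given in the sources used here.

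Heat shock genes went both ways. Of 9 genes, 5 had negative effects at both times, all 5 called at 10 days and 3 at 6 h, 2 were higher at both and 2 turned. Those calls describe the choice, since all but 6 of the 372 shared genes were called at 10 days and all but 47 at 6 h. Heat stress transcription factor A-6b (Solyc06g053950.3) had 55.6, 62.4 and 52 FPKM in weighted stems at 10 days, against 31.4, 18.9 and 31.7 FPKM in controls. It had 6.55, 5.66 and 6.15 FPKM in weighted stems at 6 h, against 1.64, 1.75 and 1.4 FPKM in controls. Weighted libraries were above all controls at both times, with a contrast of -0.40 ± 0.24 (SE; adjusted p = 0.18); that contrast was called with a pseudocount of 0.1, with array weights and without C10D replicate 2. A second gene with a heat shock factor domain (Solyc06g053960.3), which bears the next identifier, was higher by 1.16 at 10 days and 0.89 at 6 h. Another (Solyc07g055710.3) turned, with 3.81, 3.85 and 2.3 FPKM in weighted stems at 10 days, against 3.67, 19.2 and 12.6 FPKM in controls. It had 29.4, 43.7 and 25.9 FPKM in weighted stems at 6 h, against 18.5, 14.6 and 9.56 FPKM in controls, so the groups overlapped at 10 days and the effect at 6 h was not called (adjusted p = 0.064). Its contrast was -2.52 ± 0.63 (SE; adjusted p = 0.0075). The class II small heat shock protein Le-HSP17.6 (Solyc08g062437.1), a chaperone that holds unfolding proteins, had 209.9, 236 and 65.4 FPKM in weighted stems at 10 days, against 469, 1768 and 742 FPKM in controls. It had 5.06, 1.64 and 6.4 FPKM in weighted stems at 6 h, against 9.33, 10.2 and 12.2 FPKM in controls. Its effect at 6 h of -1.23 was not called (adjusted p = 0.11), and the contrast was -1.28 ± 0.79 (SE; adjusted p = 0.19), with a 95% interval of -3.01 to 0.45. C10D replicate 2 was far above the other controls and DSM10D replicate 3 far below its group. The effect at 10 days was -1.93 without that weighted library and -1.98 without that control library, against -2.51 with both. A class I small heat shock protein (Solyc06g076570.4) was lower by 1.41 at 10 days and by 1.08 at 6 h, and without C10D replicate 2 by 0.99 at 10 days. The co-chaperone BAG-1 type gene (Solyc06g007240.4) was higher at 10 days and lower at 6 h, at 1.43 ± 0.16 (SE; adjusted p = 0.00013).

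In carbon metabolism 12 of 15 genes kept their sign and 3 turned. Both phosphoenolpyruvate carboxylase genes, whose enzyme adds carbon to a small acid to feed organic acid synthesis, were higher at 10 days and lower at 6 h. Of these Solyc07g062530.3 had 170.5, 162 and 96.3 FPKM in weighted stems at 10 days, against 50.6, 67.2 and 52.5 FPKM in controls. It had 3.1, 2.5 and 2.92 FPKM in weighted stems at 6 h, against 4.36, 5.19 and 6.99 FPKM in controls, with a contrast of 2.03 ± 0.30 (SE; adjusted p = 0.00058). The second, Solyc04g006970.4, had a contrast of 2.15 ± 0.31 (SE; adjusted p = 0.00055). That gene had 264, 234 and 222 FPKM in weighted stems at 10 days, against 147, 144 and 154 FPKM in controls, and 9.34, 3.88 and 6.47 FPKM in weighted stems at 6 h, against 15.6, 18.5 and 23.4 FPKM in controls. A fructose-bisphosphate aldolase (Solyc02g062340.3), of sugar breakdown and carbon fixation and named after its values were seen, faded, with effects of -0.50 at 10 days and -0.99 at 6 h. A trehalose-phosphate synthase gene (Solyc07g006500.3), of a sugar signal pathway, went the other way, at -1.96 ± 0.23 (SE; adjusted p = 0.00016). A galactinol-sucrose galactosyltransferase (Solyc07g007930.3), which makes raffinose, kept its rise, with 172, 165 and 143 FPKM in weighted stems at 10 days, against 65.3, 69.1 and 61 FPKM in controls. It had 78.8, 55.9 and 69.3 FPKM in weighted stems at 6 h, against 32.2, 40.1 and 27.1 FPKM in controls, and the contrast was 0.26 ± 0.21 (SE; adjusted p = 0.31). Sucrose synthase (Solyc12g009300.3), which splits sucrose for wall and starch building and was chosen after its values were seen, was higher by 0.66 at 10 days and by 0.84 at 6 h.

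Amino acid metabolism turned in 7 of 11 genes, all higher at 10 days and lower at 6 h, and the other 4 were lower at both times. Equalising library totals left 7 called higher and 0 called lower at 10 days, against 7 and 4 as deposited. At 6 h it left 5 called lower, against 11 as deposited, and the contrast stayed called in 8. Threonine dehydratase 2 (Solyc09g008670.3), known in tomato as an isoleucine-pathway enzyme that also acts in defence, had 20.8, 18.3 and 13.2 FPKM in weighted stems at 10 days, against 9.12, 4.35 and 10.5 FPKM in controls. It had 1.06, 1.39 and 2.57 FPKM in weighted stems at 6 h, against 5.61, 5.79 and 7.02 FPKM in controls. Late the weighted libraries were above all controls, early below all, with a contrast of 2.54 ± 0.40 (SE; adjusted p = 0.00074). The NADH-dependent glutamate synthase (Solyc03g083440.4), which assimilates ammonium into glutamate, had a contrast of 1.61 ± 0.25 (SE; adjusted p = 0.00073). Fumarylacetoacetase (Solyc04g014730.4), the last step of tyrosine breakdown, had one of 1.51 ± 0.15 (SE; adjusted p = 7.6e-05). The dioxygenase Solyc09g082630.3 of methionine salvage, named after its values were seen, was lower at both times and faded, at 0.47 ± 0.14 (SE; adjusted p = 0.017); with library totals equalised its effect at 10 days was 0.06, against -0.24 as deposited.

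Calcium and tension genes turned in 4 of 6 cases, in the same direction. Annexins bind membranes when calcium is present. Of both annexin genes, Solyc01g097520.4 had 836, 804 and 837 FPKM in weighted stems at 10 days, against 514, 355 and 429 FPKM in controls. It had 127, 108 and 159.7 FPKM in weighted stems at 6 h, against 269, 204 and 302 FPKM in controls, with no overlap at either time and a contrast of 1.91 ± 0.25 (SE; adjusted p = 0.00031). The neighbouring identifier Solyc01g097510.4 had a contrast of 1.72 ± 0.17 (SE; adjusted p = 6.3e-05). ERD4 (Solyc08g023440.3), of the CSC1-like family that holds channels opened by membrane tension or osmotic stress in Arabidopsis, had 101, 108 and 82 FPKM in weighted stems at 10 days, against 53.8, 57.8 and 57.3 FPKM in controls. It had 27.8, 22.6 and 28.3 FPKM in weighted stems at 6 h, against 39.6, 45.9 and 39.1 FPKM in controls. It was high in weighted stems late and low in weighted stems early, with a contrast of 1.41 ± 0.17 (SE; adjusted p = 0.00017).

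The largest effect at 6 h among the shared genes was that of 1 transport gene, while the median of the transport list at 6 h was -0.43. Of the 21 transport genes, 8 were higher at both times, 9 were lower at both and 4 turned. Tonoplast intrinsic protein 23 (Solyc06g060760.3), of the water channels in the vacuole membrane, had 16.9, 20.2 and 19.5 FPKM in weighted stems at 10 days, against 13.5, 3.83 and 4.91 FPKM in controls. It had 241, 149 and 234 FPKM in weighted stems at 6 h, against 17.3, 6.54 and 21.7 FPKM in controls. Weighted stems had 2.55 times the control mean at 10 days and 13.7 times at 6 h, the groups did not overlap, and the contrast was -2.39 ± 0.62 (SE; adjusted p = 0.0089). A sodium/hydrogen exchanger (Solyc01g098190.3) was higher at 10 days and lower at 6 h, at 1.61 ± 0.22 (SE; adjusted p = 0.00039), and a nitrate and peptide transporter-type gene, NRT1/PTR family 3.1 (Solyc05g009500.3), was the other way round, at -1.84 ± 0.30 (SE; adjusted p = 0.00094). All 3 SWEET sugar exporters, chosen after their values were seen, had negative effects at both times. They were called lower at 10 days, as all but 6 of the 372 shared genes were called at that time. At 6 h 1 of the 3 was called. The summed FPKM of the 3 SWEET genes was 30.5 to 31.7 in DSM10D and 79.5 to 102 in C10D, and 30.5 to 41.6 in DSM6H and 39.3 to 72.1 in C6H.

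Microtubule and DNA replication genes were all higher in weighted stems at 10 days, 7 of 7, and at 6 h 5 of them were below their controls, 2 of these called (5 with median-ratio scaling). A MAP65-type gene (Solyc05g015320.3), whose protein bundles microtubules, had 33.6, 30.6 and 29.8 FPKM in weighted stems at 10 days, against 21.9, 20.7 and 22.7 FPKM in controls. It had 4.29, 4.32 and 3.77 FPKM in weighted stems at 6 h, against 7.01, 8.68 and 7.03 FPKM in controls, with a contrast of 1.24 ± 0.14 (SE; adjusted p = 0.00014). A kinesin-4-like motor gene (Solyc09g075480.3) had a contrast of 1.28 ± 0.17 (SE; adjusted p = 0.00031). A katanin p80 gene (Solyc04g008720.4), of the complex that severs microtubules, had a contrast of 0.68 ± 0.13 (SE; adjusted p = 0.0022), with an effect at 6 h of -0.22 that was not called (adjusted p = 0.089). No shared gene matched the markers of dividing cells, cyclins, histones or cyclin-dependent kinases.

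Redox and metal genes were mostly lower in weighted stems at both times. Of 9 redox genes 8 fell at both; with library totals equalised 2 of the 9 were called lower at 10 days and 4 at 6 h. The largest lasting drop was in a glutaredoxin-domain gene (Solyc11g069940.1), with 41.1, 47 and 70.5 FPKM in weighted stems at 10 days, against 208, 87.7 and 125 FPKM in controls. It had 19.9, 11.1 and 9.86 FPKM in weighted stems at 6 h, against 35.8, 29.7 and 29.7 FPKM in controls, and its contrast of -0.12 ± 0.45 (SE; adjusted p = 0.84) has a 95% interval of -1.10 to 0.86. Glutathione S-transferase T2 (Solyc09g011630.3) was the exception, lower at 10 days and higher at 6 h, at -1.50 ± 0.30 (SE; adjusted p = 0.0029). Of 6 metal genes 5 had negative effects at both times, all 5 called at 10 days and 4 at 6 h. Of the 372 shared genes all but 6 were called at 10 days and all but 47 at 6 h, so such calls describe the choice. With library totals equalised 1 metal gene was called lower at 10 days and 3 at 6 h. No contrast of the 6 was called in limma, none had an unadjusted p under 0.05, and the largest was that of a heavy-metal-associated domain gene (Solyc10g086280.2), at -0.63 ± 0.63 (SE; adjusted p = 0.42), which was called without C10D replicate 1. Its groups overlapped at both times, and without C10D replicate 2 its effect at 10 days was -0.79, against -1.22 with it.

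Among defence and lipid genes more turned than kept their sign. Of 13 genes for proteases, inhibitors and defence, 6 were higher at 10 days and lower at 6 h and 1 the reverse. A potato inhibitor I family gene (Solyc09g084460.3), of inhibitors that block digestive proteases of insects, had 88.1, 87 and 89.7 FPKM in weighted stems at 10 days, against 65.4, 26.7 and 45.2 FPKM in controls. It had 184, 134 and 286 FPKM in weighted stems at 6 h, against 655, 667 and 557 FPKM in controls. Every weighted library was above its controls late and below them early, with a contrast of 2.72 ± 0.42 (SE; adjusted p = 0.00073). A carboxypeptidase gene (Solyc01g010710.4) had a contrast of 1.66 ± 0.13 (SE; adjusted p = 3e-05), and a subtilase gene (Solyc08g079890.2), of secreted proteases, one of 1.57 ± 0.29 (SE; adjusted p = 0.002). The effect of the subtilase gene at 6 h was not called in limma (adjusted p = 0.066). Among 14 lipid and terpenoid genes 6 were higher at 10 days and lower at 6 h and 3 the reverse. Phospholipase A2 (Solyc07g014730.3), which frees fatty acids from membranes, had 44.2, 37.5 and 43.7 FPKM in weighted stems at 10 days, against 28.1, 7.99 and 13.4 FPKM in controls. It had 25.4, 17.1 and 17.3 FPKM in weighted stems at 6 h, against 36, 47.9 and 32.2 FPKM in controls, with a contrast of 2.38 ± 0.47 (SE; adjusted p = 0.0025). Its effect at 6 h was not called in limma (adjusted p = 0.054). A GDSL esterase/lipase (Solyc10g008830.2) had a contrast of 2.29 ± 0.47 (SE; adjusted p = 0.003), with overlapping groups at 10 days. Another GDSL-domain gene, deposited under the name zinc finger protein (Solyc02g071700.3), had one of 1.98 ± 0.18 (SE; adjusted p = 5.7e-05). A LURP-one-related gene (Solyc08g081680.2) was higher at both times, by 1.49 at 10 days and 1.38 at 6 h. Its contrast of 0.11 ± 0.32 (SE, limma adjusted p = 0.80) ran from -0.90 to 0.36 over the alternatives. The closeness of these effects therefore depends on the processing. Summed over the 4 shared genes that match markers of epidermis and cuticle, all with a GDSL lipase name or domain, FPKM was 172 to 198 in DSM10D and 101 to 136 in C10D, and 604 to 722 in DSM6H and 711 to 784 in C6H; the part of epidermal cells in these results was not tested.

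Of 11 cytochrome P450 and dioxygenase genes 2 faded and 6 turned. An iron-dependent dioxygenase-domain gene (Solyc02g080120.3) had 7.22, 8.15 and 9.03 FPKM in weighted stems at 10 days, against 2.74, 5.49 and 3.75 FPKM in controls. It had 66.5, 48.8 and 60.5 FPKM in weighted stems at 6 h, against 3.62, 0.97 and 8.45 FPKM in controls. The groups were apart at both times, though the effect at 10 days was not called (adjusted p = 0.057), and the contrast of -2.84 ± 0.60 (SE; adjusted p = 0.0035) was the most negative of the faded genes. The other, deposited as thebaine 6-O-demethylase (Solyc02g071430.3) and named after its values were seen, had a contrast of -0.61 ± 0.23 (SE; adjusted p = 0.047). In the same list, flavonoid 3-hydroxylase (Solyc12g042480.3) had a contrast of -1.60 ± 0.31 (SE; adjusted p = 0.0023) and a cytochrome P450 gene (Solyc10g083690.3) one of -1.59 ± 0.31 (SE; adjusted p = 0.0024). The effect of Solyc10g083690.3 at 6 h was not called in limma (adjusted p = 0.053). Of 17 transcription factor genes 9 turned, beside 128 of the 372 shared genes, and 5 of the 9 were lower at 10 days. A zinc-finger gene (Solyc12g088390.1) had 2.2, 0.96 and 0.45 FPKM in weighted stems at 10 days, against 3.75, 15.3 and 4.05 FPKM in controls. It had 144, 269 and 134 FPKM in weighted stems at 6 h, against 121, 92.1 and 87.2 FPKM in controls, an effect at 6 h that was not called (adjusted p = 0.19), and the contrast was -2.61 ± 0.64 (SE; adjusted p = 0.0069). A GATA factor (Solyc01g090760.4) was higher at 10 days and lower at 6 h, at 1.56 ± 0.21 (SE; adjusted p = 0.00038), and the zinc finger homeodomain gene SZF-HD1 (Solyc03g098060.3) the other way, at -1.52 ± 0.22 (SE; adjusted p = 0.00048).

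Of 9 protein kinase genes 3 turned, near the share over all shared genes (128 of 372), and 4 were higher at both times (111 of 372). A protein kinase domain gene (Solyc04g072037.1) kept its rise, with 1.99, 1.77 and 3.99 FPKM in weighted stems at 10 days, against 0.7, 0.75 and 0.6 FPKM in controls. It had 14.5, 7.73 and 7.17 FPKM in weighted stems at 6 h, against 1.78, 1.8 and 3.7 FPKM in controls, and a contrast of -0.60 ± 0.41 (SE; adjusted p = 0.23), called only with array weights (adjusted p = 0.033) among 22 alternatives. Contrasts of the 3 that turned were -1.70 ± 0.43 (SE; adjusted p = 0.0085) for Solyc10g052880.1, -1.15 ± 0.21 (SE; adjusted p = 0.0018) for the receptor-like Solyc09g011330.3 and 1.15 ± 0.18 (SE; adjusted p = 0.00073) for the chloroplast aarf-type Solyc07g045420.4. The effect of Solyc10g052880.1 at 6 h was not called in limma (adjusted p = 0.082). Of 9 protein turnover genes 1 turned, the peroxisomal Lon protease 2 (Solyc08g077440.3), at 0.72 ± 0.17 (SE; adjusted p = 0.0049). Its effect at 6 h of -0.27 was not called in limma (adjusted p = 0.095). Of 5 nucleotide genes 3 turned. CTP synthase makes a building block of RNA and lipids; both its genes rose at 10 days, but at 6 h Solyc01g079650.3 was lower, with a contrast of 1.29 ± 0.14 (SE; adjusted p = 0.00014). At 6 h Solyc01g056850.3, named after its values were seen, was higher, with a contrast of -0.57 ± 0.29 (SE; adjusted p = 0.12). A uridine-cytidine kinase gene (Solyc03g114580.4) had a contrast of 0.88 ± 0.16 (SE; adjusted p = 0.002), and a nucleoside diphosphate kinase gene (Solyc01g089970.3) one of -0.91 ± 0.16 (SE; adjusted p = 0.0017). The effect of Solyc03g114580.4 at 6 h was not called in limma (adjusted p = 0.052).

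In the 114 genes outside the lists, 82 kept their sign, 34 higher and 48 lower at both times, and 32 turned. A bulb-type lectin domain gene (Solyc07g062490.1) had 3.07, 2.86 and 2.75 FPKM in weighted stems at 10 days, against 11.2, 7.94 and 10.5 FPKM in controls. It had 264, 523 and 272 FPKM in weighted stems at 6 h, against 183, 125 and 159 FPKM in controls. It was low in weighted stems late and high in weighted stems early, with a contrast of -2.59 ± 0.33 (SE; adjusted p = 0.00029). Hsr201 (Solyc07g049655.1) was lower at both times, by 1.16 at 10 days and by 1.67 at 6 h, with a contrast of 0.52 ± 0.34 (SE; adjusted p = 0.21) that was called with array weights (adjusted p = 0.046). The 2 genes whose drop grew were a leukemia factor-interacting protein homologue (Solyc01g091260.3), at -0.79 ± 0.29 (SE; adjusted p = 0.041), and a polyketide cyclase-type gene (Solyc10g076410.1), at -0.74 ± 0.27 (SE; adjusted p = 0.041). Both lie close to the threshold: the first lost its call in 11 and the second in 9 of 22 alternatives. The second belongs to the list of proteases and defence, not to the genes outside the lists.

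**Figure D4:**
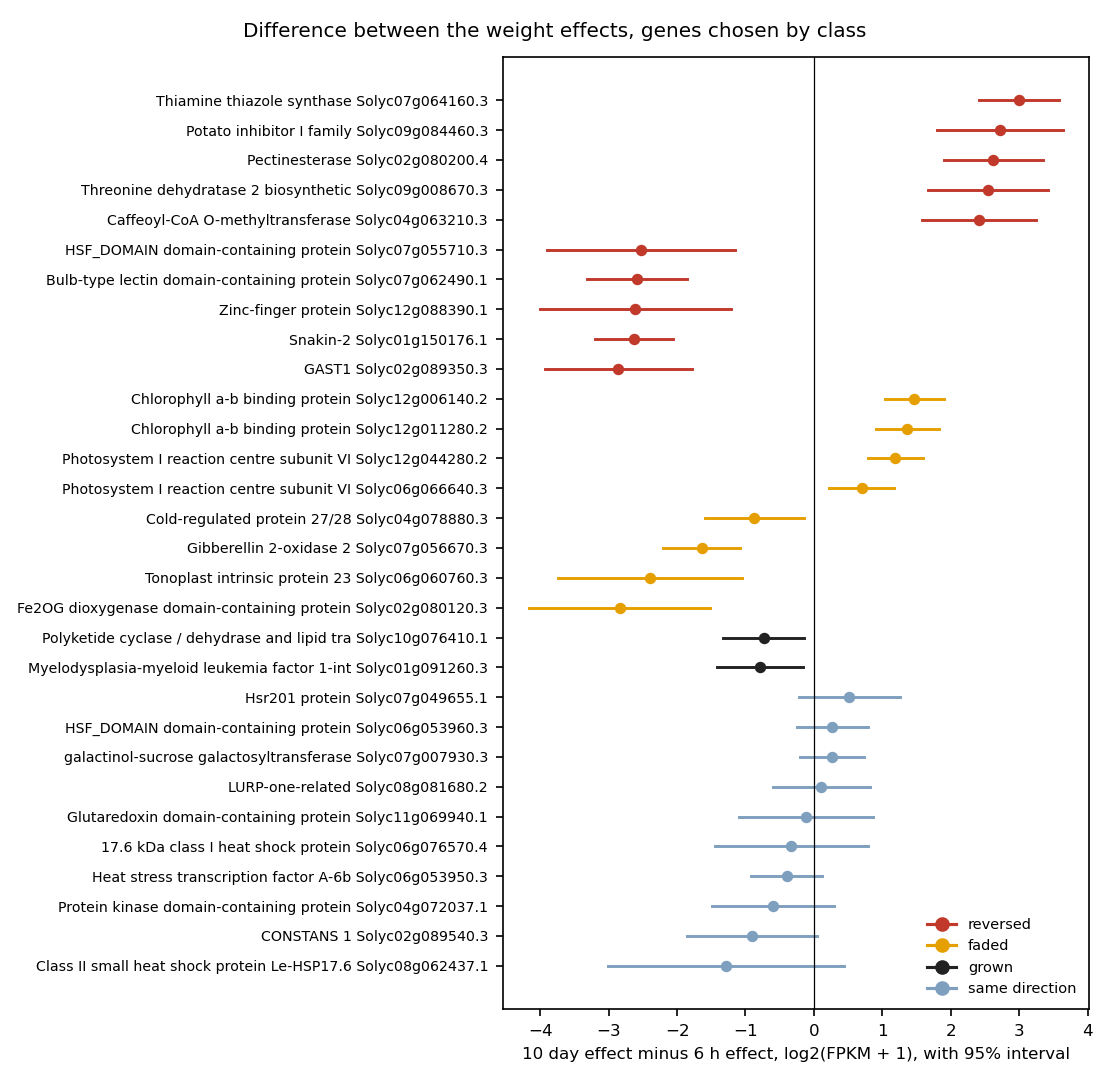
Contrast (10 day effect minus 6 h effect, log2(FPKM + 1), point) with its 95% interval (line) for the genes chosen by class, each with its identifier. Intervals of the reversed, faded and grown genes do not reach 0, with those of the faded Solyc04g078880.3 and of the 2 grown genes ending closest to it, and those of the genes with kept direction cross it.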

How the data were processed

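The 12 libraries were mapped, per the labels' protocols, to a genome with HISAT and to genes with Bowtie2; the sources used here do not give versions, build, annotation or the handling of multi-mapped reads. The authors deposited FPKM values per library, per the file headers, in a table for each time. Points and tabs are swapped in the 6 h table, so it served for identifiers alone and all FPKM values come from the 10 day table. The authors' Q values served only to check how genes were chosen. Among 300 low values of shared genes, 7% lay at a whole multiple of the gene's lowest value (tolerance 0.005 FPKM), so whole reads could not be recovered. Depth is therefore unknown, and values carry no interval for counting error.

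Genes with 1 FPKM or more in 3 or more libraries were fitted on log2(FPKM + 1), which understates changes of low genes, with limma 3.58.1 in R 4.3.3 (4 group means, empirical Bayes with trend, two-sided tests). P-values measure the spread between these libraries, which may be partly technical. An exact permutation over 3 and 3 libraries reaches 0.1 at best and was not used. Plots used Python 3.11.15 and matplotlib 3.10.9.

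Names and domains are those of the deposited table (273 shared genes with a name, 82 with a domain only, 17 with neither). No identifier matched the gene table at hand, so positions and sequences are not given. Genes were named by rule if their highest group mean was at least 5 FPKM: the 5 largest and 5 smallest contrasts among reversed genes, 4 and 4 among faded, 3 and 3 among grown, the 5 higher and 5 lower of kept direction by the smaller of their effects, and up to 3 called genes per list by absolute contrast (1 where none was called). The shared genes, lists and tests were chosen with earlier results of these data known. Alternatives were a pseudocount of 0.1, other filters, median-ratio, total and quantile scaling, array weights, robust fitting, shared genes only, the replicate number as a block, and each library left out in turn.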

Additional observations from a re-analysis of the deposited data

Results flagged for a closer look

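The weight effect differed between 10 days and 6 h, by limma's test of the difference itself, in 143 of the 372 shared genes, 38.4% of them, beside 49.1% of all genes tested. Since genes were kept for an effect at both times, that count follows from the choice and from the signs. The sizes of the difference follow for the 63 of these that were named by rule, each as the 10 day effect minus the 6 h effect on log2(FPKM + 1). Among genes that were higher at 10 days and lower at 6 h, the difference was 2.99 for Solyc07g064160.3, 2.72 for Solyc09g084460.3, 2.62 for Solyc02g080200.4, 2.54 for Solyc09g008670.3, 2.42 for Solyc04g063210.3, 2.38 for Solyc07g014730.3, 2.29 for Solyc10g008830.2, 2.25 for Solyc06g006080.3, 2.18 for Solyc02g084800.4, 2.15 for Solyc04g006970.4, 2.03 for Solyc07g062530.3 and 1.98 for Solyc02g071700.3. It was 1.91 for Solyc01g097520.4, 1.81 for Solyc04g071900.4, 1.72 for Solyc01g097510.4, 1.66 for Solyc01g010710.4, 1.61 for Solyc03g083440.4, 1.61 for Solyc01g098190.3, 1.57 for Solyc08g079890.2, 1.56 for Solyc01g090760.4, 1.51 for Solyc04g014730.4, 1.43 for Solyc06g007240.4, 1.41 for Solyc08g023440.3 and 1.29 for Solyc01g079650.3 in the next group by size, and 1.28 for Solyc09g075480.3, 1.24 for Solyc05g015320.3, 1.15 for Solyc07g045420.4, 1.11 for Solyc12g014420.2, 1.11 for Solyc08g083310.3, 0.88 for Solyc03g114580.4, 0.72 for Solyc08g077440.3 and 0.68 for Solyc04g008720.4 in the smallest. Among genes that were lower at 10 days and higher at 6 h, the difference was -2.86 for Solyc02g089350.3, -2.63 for Solyc01g150176.1, -2.61 for Solyc12g088390.1, -2.59 for Solyc07g062490.1, -2.52 for Solyc07g055710.3, -1.96 for Solyc07g006500.3, -1.88 for Solyc05g007480.1, -1.84 for Solyc05g009500.3, -1.70 for Solyc10g052880.1 and -1.60 for Solyc12g042480.3. It was -1.59 for Solyc10g083690.3, -1.52 for Solyc03g098060.3, -1.50 for Solyc09g011630.3, -1.37 for Solyc01g005680.4, -1.35 for Solyc12g057040.2, -1.21 for Solyc11g013310.2, -1.15 for Solyc09g011330.3, -1.08 for Solyc06g066660.4, -1.01 for Solyc06g053820.4, -0.91 for Solyc01g089970.3 and -0.88 for Solyc06g069860.4 in the others of that direction. The named genes whose effect kept its sign and was smaller at 10 days had differences of -2.84 for Solyc02g080120.3, -2.39 for Solyc06g060760.3, -1.64 for Solyc07g056670.3, -0.87 for Solyc04g078880.3, 0.70 for Solyc06g066640.3, 1.19 for Solyc12g044280.2, 1.37 for Solyc12g011280.2 and 1.47 for Solyc12g006140.2. Those whose effect kept its sign and was larger at 10 days had differences of -0.79 for Solyc01g091260.3 and -0.74 for Solyc10g076410.1. The reason for these differences was not tested.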

How the results depend on the processing

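The counts of called contrasts held their size under every one of the 22 alternatives, with 80 to 96 positive and 51 to 66 negative (86 and 57 as reported), and no called contrast of a named gene changed sign. Among named genes with no called contrast, that of Solyc06g053960.3, Solyc06g076570.4, Solyc08g081680.2 and Solyc11g069940.1 took either sign over the alternatives. Of the 63 called named genes, 59 kept the call throughout, with a highest adjusted p of 0.024. Calls were lost by Solyc01g091260.3 (11 alternatives), Solyc04g078880.3 (11), Solyc10g076410.1 (9) and Solyc06g066640.3 (1). Calls were gained in limma with array weights by Solyc01g104070.3 (adjusted p = 0.048), Solyc04g072037.1 (0.033) and Solyc07g049655.1 (0.046), by Solyc06g053950.3 in 3 alternatives and by Solyc10g086280.2 in 1. With library totals equalised, 60 genes were called lower at 10 days and 98 at 6 h, against 178 and 174 as deposited; that scaling moved the median effect of all genes by 0.24 at 10 days and 0.21 at 6 h. Array weights, whose estimation stopped before reaching its tolerance, gave 28 faded and 4 grown genes, against 13 and 2; with the shared genes fitted alone 0 were grown. Beyond these properties of the alternatives, the cause was not tested. Leaving out 1 library at a time gave 97 to 155 genes called higher at 6 h (lowest without DSM6H replicate 1) and 114 to 191 called lower (lowest without C6H replicate 1), 8 to 18 faded (8 without C6H replicate 1) and 0 to 6 grown (0 without C6H replicate 3, 6 without C10D replicate 1, and 1 without DSM6H replicate 2, DSM10D replicate 1 or C10D replicate 3). The replicate block gave 86 positive and 56 negative contrasts, 187 higher and 171 lower genes at 10 days, 144 and 158 at 6 h, 12 faded and 2 grown. Deviations of libraries with the same number in different groups correlated at -0.46 to 0.31, with 3 of 18 over 0.1. Those with different numbers correlated at -0.36 to 0.42, with 11 of 36 over 0.1. No pairing by number was seen, but deviations within groups of 3 libraries cannot exclude it. Depth is unknown, and values near 1 FPKM are compressed by the pseudocount.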
